A study of Mus musculus with 18 samples.

Results

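The transcripts described here are those of Myc and of 38 genes that build ribosomes, 39 genes among the 47729 listed in each of 18 count tables. A gene was taken when its Ensembl identifier carried one of the 39 symbols in the GENCODE M21 annotation of the mouse genome (GRCm38). The 39 symbols were chosen with earlier results of these data known. The tables come from RNA sequencing of epithelial cells sorted by flow cytometry from the ileum (distal small intestine) of female mice. Of the 18 libraries, 6 came from pregnant, 6 from pseudopregnant and 6 from virgin mice. A pseudopregnant mouse carries a luteal, progesterone-rich state without embryos. The series is titled as a study of how the maternal gut grows in pregnancy and lactation, and the comparisons ask how each mating status differs from virgin and how pregnancy differs from pseudopregnancy. All animals received RM3 chow while breeding and RM1 chow in maintenance and experiment. Strain, age, day of pregnancy, the way pseudopregnancy was induced, the sorting markers, the hour and any batch are not given in the labels. The labels also do not say whether each replicate is its own animal, and p-values here measure only the spread between samples, which may be partly technical.

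Ribosomes are assembled in the nucleolus. RNA polymerase I transcribes a long precursor of ribosomal RNA, small nucleolar ribonucleoproteins (snoRNPs) modify and help to fold it, and assembly factors cut it and load ribosomal proteins onto a small and a large subunit. MYC is a transcription factor that pairs with MAX on E-box DNA and is known to raise many of these genes in growing cells. In the small intestine MYC and ribosome synthesis are features of the dividing crypt, and both decline as cells move onto the villus.

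All 39 genes passed edgeR's filter on low counts, which kept 14675 genes. They lie on 16 chromosomes and together took 0.0749% to 0.18% of a library's counts. Libraries held 24.9 to 37.3 M counts. Markers of epithelium summed to 10268 to 19230 CPM in pregnant, 8986 to 18968 CPM in pseudopregnant and 12362 to 21691 CPM in virgin libraries, where CPM is the usual count scaled to library size, here with TMM factors. The 12 leukocyte markers summed to 15.4 to 41.8 CPM in pregnant, 21.3 to 34.4 CPM in pseudopregnant and 13.0 to 41.3 CPM in virgin libraries, and the 8 stromal markers to at most 13.7 CPM. None of these markers was at 0 in all libraries. In each group the library labelled replicate 3 stood apart, with the most absorptive enterocyte transcripts relative to proliferation transcripts. Some results that rest on replicate 3 are given with and without it below.

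The E-box that MYC and MAX prefer has the letters CACGTG, which read the same on both strands. RefSeq promoter windows on GRCm38.p6, which run from 250 bases before to 50 bases after an annotated start, were at hand for 33 of the genes in 37 windows. CACGTG was found in 9 of the 37 windows (24.3%), against 9.76% of 12814 windows of all tested genes and 7.15% of all 32851 windows. The related letters CACGCG or CGCGTG, the same motif on either strand, were found in 12 of the 37 windows (32.4%), against 16.3% and 9.27%. Of the 37 windows, 8 (21.6%) held CACGTG within the 50 bases after the start, as did 195 (1.52%) windows of tested genes. Counted from 1 at the start, the match began at 3 in Pes1, 18 in Wdr43, 24 in Nle1, 25 in Tsr1, 29 in Ltv1, 38 in Utp20 and Pno1 and 41 in Mybbp1a, while Nop2 held one 60 bases before its start. A match describes letters only and shows no binding, and the windows of the 5 such genes whose values are given in full below are printed because they show how close to the start the motif lies. The stretches are Ltv1 chr10:13193092-13193121 on the minus strand, Utp20 chr10:88826765-88826794 on the minus strand, Pno1 chr11:17211540-17211569 on the minus strand, Mybbp1a chr11:72441347-72441376 on the plus strand and Wdr43 chr17:71616220-71616249 on the plus strand. They are written 5′ to 3′ on the gene's strand, with the E-box in capitals.
Ltv1: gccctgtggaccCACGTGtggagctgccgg
Utp20: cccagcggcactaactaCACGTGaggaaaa
Pno1: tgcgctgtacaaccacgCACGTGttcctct
Mybbp1a: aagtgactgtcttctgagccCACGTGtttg
Wdr43: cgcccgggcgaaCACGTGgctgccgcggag

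Per kilobase of exon, the mean level over the 18 libraries spanned 0.636 CPM for Rrp1b to 111 CPM for Npm1, with a median of 6.19 CPM. Exon length counted every base in any annotated exon of a gene, and ran from 1109 bases (Nop10) to 11955 bases (Wdr12). It can exceed the length of the transcript a cell mainly makes, which would lower the level per kilobase. After Npm1 the highest levels per kilobase were those of Nhp2 (25.8 CPM), Ncl (24.03 CPM), Nop10 (22.1 CPM) and Pno1 (14.2 CPM). Polr1a stood at 0.847 CPM per kilobase and Wdr12 at 0.638 CPM per kilobase. The 39 genes also differed in steadiness. Ltv1 varied least, with 1.53 times as many CPM in its highest library as in its lowest, and Rrp1b most, with 5.62 times. The SD of log2 CPM among libraries of 1 group ran from 0.18 (Ltv1) to 0.71 (Rrp1b), with a median of 0.45. Of the 39 genes, 8 hold 23 annotated snoRNA genes on their own strand, such as Snord57 and Snord110 in Nop56, Snord11 and Snord70 in Nop58, Snora75 and Snord82 in Ncl and Snord53 and Snord92 in Wdr43. Exons of 17 genes overlap no other annotated gene. Tsr1 shares 1240 exon bases with Srr, Noc2l 598 with Samd11 and Bysl 361 with Ccnd3, each on the opposite strand, and without the strand setting of the counting those reads cannot be told apart. Npm1 has processed copies in the mouse genome, so its counts may be split among near-identical sequences.

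In pregnant against virgin epithelium, the fitted log2 fold change of all 39 genes was below 0 (38 with DESeq2 size factors, where Mybbp1a was above 0), and none of the differences passed the test. The median was -0.23 on the log2 scale, where that of all tested genes was -0.0076 and 51.5% of them were below 0 and 48.5% above. The values ran from -0.58 (SE 0.26) for Gar1 to -0.0039 (SE 0.28) for Mybbp1a. After Gar1 the lowest were the large-subunit gene Ppan (-0.47), Nop10 (-0.45) and Myc (-0.45), and by role the median was lowest for the 5 box H/ACA genes (-0.40) and highest for the 3 polymerase I genes (-0.034). In 23 of the 39 genes at least 5 of the 6 pregnant libraries lay below the virgin median, a pattern held by 21.7% of all tested genes. In sorted cells in bulk, fewer crypt cells and less RNA per cell cannot be told apart.

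By edgeR's quasi-likelihood test 0 of 39 genes passed an adjusted p of 0.05 (0% of all tested genes), with adjusted p between 0.891 and 0.997. An unadjusted p under 0.05 was held by 1 of them, Gar1, and by 3.68% of all tested genes. DESeq2 and limma-voom also called 0 of the 39 after adjustment (0.0341% and 0% of all genes) and 1 before it (4.27% and 3.6% of all genes). No gene's groups were free of overlap (0.0681% of all tested genes). For 34 of the 39 the fold change was smaller than the SD within groups. Without pregnant replicate 3 the median was -0.14 with 35 genes below 0, and without virgin replicate 3 it was -0.34, with 11 genes at an unadjusted p under 0.05 where 13.2% of all genes were. Leaving out pregnant replicate 1 gave 5 such genes (9.34% of all genes), and leaving out pregnant replicate 5 gave 4 (5.49%). When any other single library was left out, 0 or 1 of the 39 genes had such a p, against at most 4.18% of all genes.

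In pseudopregnant against virgin epithelium the 39 genes went both ways, with 23 below 0 and 16 above (49.4% and 50.6% of all tested genes) and a median of -0.048. With upper-quartile scaling 26 were below 0, the sign of Wdr75, Bop1 and Nop2 being the one that differed. The 3 polymerase I genes among the 39 were all above 0 (median 0.39), as were 7 of the 8 early factors of the small subunit (median 0.068; 6 with upper-quartile scaling). Of 13 other polymerase I genes, outside the 39, 10 were below 0 (median -0.14). The 3 box C/D proteins and the 5 box H/ACA genes were all below 0 (both medians -0.24), as was Myc at -0.45. Values ran from -0.45 for Myc to 0.59 (SE 0.35) for Polr1a. None of the 39 passed edgeR's adjusted p of 0.05 (0% of all tested genes). The lowest adjusted p in edgeR was 0.515, both among the 39 and among all tested genes. An unadjusted p under 0.05 was held by 0 of 39 in edgeR, DESeq2 or limma-voom, against 9.37%, 10.3% and 7.54% of all tested genes by the same tools. Groups of every gene overlapped (0.0681% of all tested genes did not). Without pseudopregnant replicate 3 the median was 0.034 with 17 genes below 0, and without virgin replicate 3 it was -0.15 with 29 below 0. Leaving out virgin replicate 1 moved it to -0.015, virgin replicate 5 to -0.011, pseudopregnant replicate 1 to -0.0097, and pseudopregnant replicates 4, 5 or 6 to -0.11, -0.10 and -0.11. In edgeR 5 genes had an unadjusted p under 0.05 without virgin replicate 3 (17.5% of all genes). Without pseudopregnant replicate 1 it was 3 (22.9%), without replicate 3 also 3 (10.3%) and without replicate 6 it was 2 (15.4%). Dropping any other single library gave 0.

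Pregnant against pseudopregnant libraries had 35 of the 39 genes below 0 (51.6% of all tested genes), with a median of -0.21. Polr1a (-0.63, SE 0.35), Utp20 (-0.59, SE 0.29) and Rrp1b (-0.54, SE 0.36) had the lowest values. Above 0, as were 48.4% of all tested genes, stood Npm1 (0.065), Fbl (0.043), Nhp2 (0.017) and Myc (0.0048). Again 0 of 39 passed edgeR's adjusted p of 0.05 (0% of all tested genes). Its lowest adjusted p was 0.92, both among the 39 and among all tested genes. An unadjusted p under 0.05 in edgeR was held by 0 of 39, where 2.35% of all tested genes had one. DESeq2 and limma-voom called 0 of 39 with adjustment (0% of all genes by each) and 0 without it, where 2.65% and 1.68% of all genes had an unadjusted p under 0.05. The groups of every gene overlapped (0.0273% of all tested genes did not). Without pregnant replicate 3 the median was -0.12 with 28 genes below 0, and without pseudopregnant replicate 6 it was -0.13 with 30 below 0. An unadjusted p under 0.05 was held by 8 of the genes (5.2% of all genes) when pseudopregnant replicate 3 was left out and by 6 (10.6%) when pseudopregnant replicate 1 was. Dropping pregnant replicate 6 gave 4 (6.79%), dropping pregnant replicate 5 gave 2 (2.95%), and dropping any other single library gave 0. These contrasts share their libraries in pairs, so their values stand side by side and are not independent of each other.

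**Figure D1:**
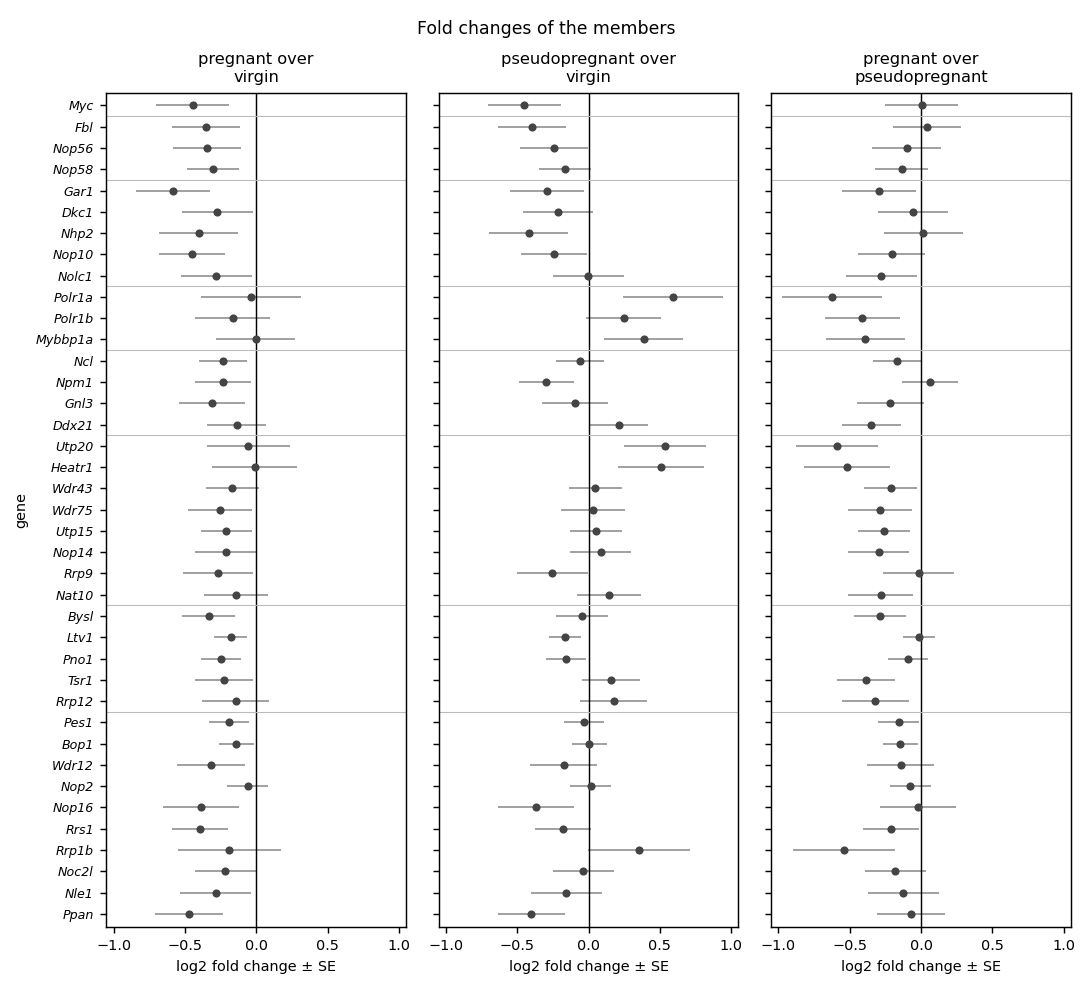
Log2 fold change with its SE (edgeR, n = 6 libraries per group) of the 39 genes, in rows grouped by role, for pregnant over virgin, pseudopregnant over virgin and pregnant over pseudopregnant. In the left panel all 39 points lie left of 0 with TMM scaling, between -0.58 and -0.0039 (Mybbp1a, above 0 with DESeq2 size factors), while the middle panel has 23 points left of 0 and 16 right of it.

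Myc itself (ENSMUSG00000022346, chromosome 15, 61985391 to 61990374, plus strand) stood at 11.2, 19.0 and 26.4 CPM in the lowest, median and highest of the 6 pregnant libraries. Its values were 10.3, 20.1 and 24.4 CPM in pseudopregnant and 11.1, 28.7 and 33.5 CPM in virgin libraries. All 6 pregnant and all 6 pseudopregnant libraries lay below the virgin median, yet the groups overlapped. Virgin replicate 3 was as low as the lowest libraries of the other groups, and pregnant replicates 2 (26.4 CPM) and 5 (26.2 CPM) also lay above virgin replicate 4 (24.4 CPM). The fold changes were -0.45 (SE 0.26, adjusted p = 0.891) for pregnant and -0.45 (SE 0.26, adjusted p = 0.515) for pseudopregnant over virgin by edgeR's quasi-likelihood test. Pregnant and pseudopregnant libraries differed by 0.0048 (SE 0.26, adjusted p = 0.997 in edgeR). Without the 4 libraries of highest villus-minus-crypt score, an alternative chosen after seeing the data, Myc was among the 4 genes with an unadjusted p under 0.05 in pregnant against virgin libraries (2.57% of all genes) and among the 5 in pseudopregnant against virgin libraries (15.0% of all genes), and no adjusted p passed.

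**Figure D2:**
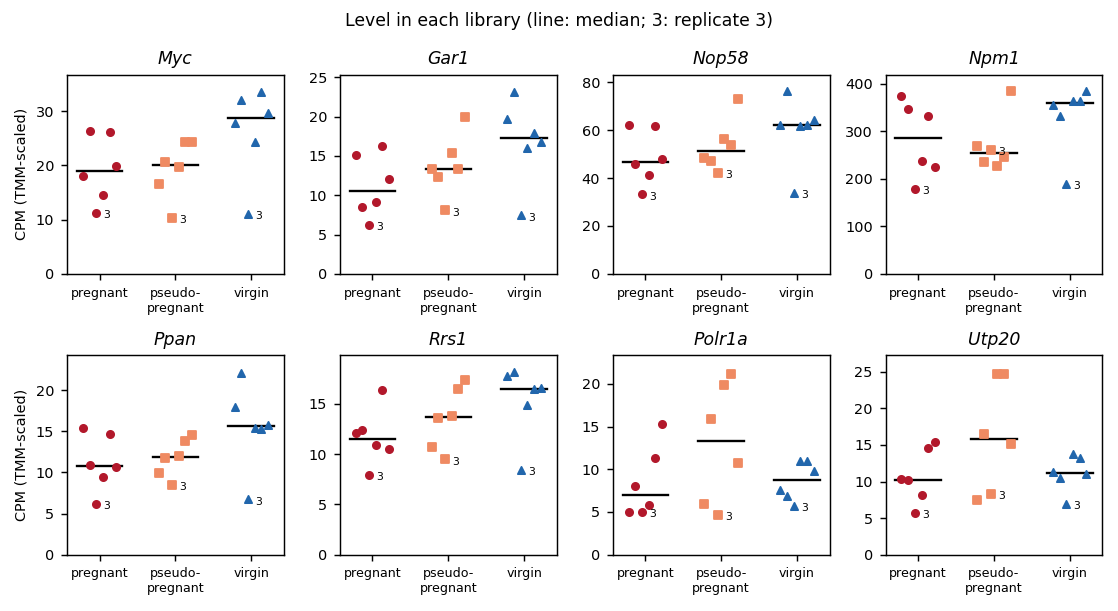
TMM-scaled CPM of 8 of the genes in each of the 6 pregnant, 6 pseudopregnant and 6 virgin libraries, with a line at each group's median and replicate 3 marked. Virgin medians lie above the pregnant ones for all 8 genes, replicate 3 is the lowest virgin library in each panel, and in Polr1a and Utp20 the pseudopregnant libraries spread more widely than those of either other group.

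Box C/D snoRNPs place methyl groups on ribosomal RNA. Their methyltransferase fibrillarin, encoded by Fbl, stood at 31.7, 49.0 and 83.8 CPM in the lowest, median and highest pregnant libraries, 35.4, 49.6 and 75.3 CPM in pseudopregnant and 35.3, 67.7 and 87.3 CPM in virgin libraries. Fbl was lower than in virgin libraries in both contrasts (-0.35 for pregnant and -0.40 for pseudopregnant, SE 0.24 each). The scaffold protein gene Nop58 had 33.2, 46.8 and 62.0 CPM in pregnant, 42.3, 51.1 and 72.9 CPM in pseudopregnant and 33.8, 62.2 and 76.3 CPM in virgin libraries. All 6 pregnant libraries of Nop58 lay below the virgin median, with a fold change of -0.30 (SE 0.18), while virgin replicate 3 lay near the lowest pregnant library. Nop56, the partner of Nop58, gave -0.35 (SE 0.24) for pregnant and -0.24 (SE 0.24) for pseudopregnant over virgin.

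Box H/ACA snoRNPs convert uridines of ribosomal RNA to pseudouridine, with dyskerin (Dkc1) as the enzyme and Gar1, Nhp2 and Nop10 as its core partners. Gar1 (ENSMUSG00000028010, chromosome 3, 129824912 to 129831396, minus strand) stood at 6.27, 10.6 and 16.2 CPM in the lowest, median and highest pregnant libraries, 8.06, 13.4 and 20.0 CPM in pseudopregnant and 7.45, 17.3 and 23.1 CPM in virgin libraries. All 6 pregnant libraries of Gar1 lay below the virgin median. Its fold change over virgin, -0.58 (SE 0.26), had the smallest unadjusted p of the 39 genes in any comparison (adjusted p = 0.891 in edgeR). With pseudopregnant libraries in place of pregnant ones it was -0.29 (SE 0.26). Nop10 had 14.7, 20.1 and 30.2 CPM in pregnant, 18.9, 22.7 and 30.9 CPM in pseudopregnant and 13.0, 27.9 and 44.1 CPM in virgin libraries. The high end of Nop10 was virgin replicate 2, and the fold change for pregnant over virgin was -0.45 (SE 0.23). Nhp2 had 16.5, 24.7 and 45.5 CPM in pregnant, 18.1, 23.3 and 39.8 CPM in pseudopregnant and 16.01, 35.1 and 54.9 CPM in virgin libraries. Its fold changes over virgin were -0.40 (SE 0.28) for pregnant and -0.42 (SE 0.28) for pseudopregnant. Dkc1 gave -0.27 for pregnant and -0.21 for pseudopregnant over virgin (SE 0.25 each). Nolc1, which encodes a chaperone of snoRNPs, was at -0.28 (SE 0.25) in pregnant but at -0.0022 (SE 0.25) in pseudopregnant over virgin libraries.

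Polr1a and Polr1b encode the large core subunits of RNA polymerase I. Polr1a stood at 4.998, 6.95 and 15.3 CPM in the lowest, median and highest pregnant libraries, 4.65, 13.3 and 21.2 CPM in pseudopregnant and 5.75, 8.69 and 11.02 CPM in virgin libraries. The pseudopregnant libraries split widely, with replicates 2, 4 and 5 above every virgin library and replicates 1 and 3 near or below the lowest. Fold changes of Polr1a were -0.034 (SE 0.35, adjusted p = 0.988) for pregnant over virgin, 0.59 (SE 0.35, adjusted p = 0.515) for pseudopregnant over virgin and -0.63 (SE 0.35, adjusted p = 0.92) for pregnant over pseudopregnant in edgeR. Polr1b had 6.63, 8.32 and 12.8 CPM in pregnant, 5.74, 13.2 and 18.4 CPM in pseudopregnant and 7.04, 10.9 and 12.9 CPM in virgin libraries. All 6 pregnant libraries of Polr1b lay below the pseudopregnant median, at -0.41 (SE 0.26). Mybbp1a, whose product takes part in the synthesis and processing of ribosomal RNA and whose E-box window is printed above, had 26.1, 36.7 and 54.0 CPM in pregnant, 24.1, 51.3 and 79.6 CPM in pseudopregnant and 23.6, 41.0 and 52.7 CPM in virgin libraries. Its fold change was 0.39 (SE 0.28) for pseudopregnant and -0.0039 (SE 0.28) for pregnant over virgin.

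Nucleolin (Ncl) and nucleophosmin (Npm1) are the abundant scaffold proteins of the nucleolus. Ncl stood at 154, 225 and 281 CPM in the lowest, median and highest pregnant libraries, 189, 258 and 329.5 CPM in pseudopregnant and 176, 284 and 308 CPM in virgin libraries. All 6 pregnant libraries of Ncl lay below the virgin median, at -0.23 (SE 0.17), and pseudopregnant over virgin gave -0.061 (SE 0.17). Npm1 had 179.6, 285 and 373 CPM in pregnant, 227, 253 and 385 CPM in pseudopregnant and 189, 359.6 and 385 CPM in virgin libraries. For Npm1 the pseudopregnant libraries lay close together except replicate 6, and the fold changes over virgin were -0.23 (SE 0.20) for pregnant and -0.30 (SE 0.20) for pseudopregnant. Gnl3, which encodes the GTP-binding protein nucleostemin, gave -0.31 (SE 0.23) for pregnant and -0.096 (SE 0.23) for pseudopregnant over virgin. The RNA helicase gene Ddx21 was at -0.14 (SE 0.21) for pregnant and 0.21 (SE 0.21) for pseudopregnant over virgin.

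The early factors of the small subunit form the processome around the nascent precursor. Utp20, a large scaffold of that particle, stood at 5.70, 10.3 and 15.4 CPM in the lowest, median and highest pregnant libraries, 7.48, 15.8 and 24.8 CPM in pseudopregnant and 6.97, 11.2 and 13.8 CPM in virgin libraries. Every pregnant library of Utp20 lay below the pseudopregnant median, at -0.59 (SE 0.29, adjusted p = 0.92 in edgeR), and pseudopregnant over virgin gave 0.53 (SE 0.29, adjusted p = 0.515). Heatr1, a scaffold of the same particle, had 6.77, 9.89 and 17.3 CPM in pregnant, 6.54, 16.9 and 25.2 CPM in pseudopregnant and 8.56, 11.9 and 13.9 CPM in virgin libraries. In Heatr1, as in Utp20, pseudopregnant replicates 2, 4 and 5 were the highest of the 6 and replicate 1 the lowest, and pseudopregnant over virgin gave 0.51 (SE 0.30). Wdr43 had 15.0, 22.6 and 27.5 CPM in pregnant, 15.1, 28.5 and 31.3 CPM in pseudopregnant and 15.9, 26.1 and 27.9 CPM in virgin libraries. Utp15 had 7.88, 10.2 and 12.2 CPM in pregnant, 7.84, 12.5 and 15.7 CPM in pseudopregnant and 8.08, 11.95 and 13.1 CPM in virgin libraries. Both encode subunits that bind the leader of the precursor, and their fold changes for pregnant over virgin were -0.17 (SE 0.18) for Wdr43 and -0.21 (SE 0.18) for Utp15. The other 4 genes of this role, Wdr75, Nop14, Rrp9 and the RNA acetyltransferase gene Nat10, lay between -0.27 and -0.14 in the same contrast.

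Late factors accompany the small subunit to the cytoplasm. Bysl stood at 5.996, 7.76 and 9.35 CPM in the lowest, median and highest pregnant libraries, 5.85, 9.71 and 11.8 CPM in pseudopregnant and 6.41, 9.99 and 12.2 CPM in virgin libraries. All 6 pregnant libraries of Bysl lay below both other medians, with -0.33 (SE 0.18) against virgin and -0.29 (SE 0.18) against pseudopregnant libraries. Ltv1, the steadiest of the genes, had 20.1, 23.9 and 27.5 CPM in pregnant, 19.9, 24.1 and 30.3 CPM in pseudopregnant and 22.1, 27.7 and 30.5 CPM in virgin libraries. Its fold changes over virgin were small, -0.18 for pregnant and -0.17 for pseudopregnant, with an SE of 0.12 or 0.11. Pno1, whose product holds the immature end of small-subunit RNA, had 19.9, 20.9 and 28.5 CPM in pregnant, 20.6, 22.2 and 30.8 CPM in pseudopregnant and 17.9, 28.5 and 29.6 CPM in virgin libraries. For Pno1 the lowest library of all was virgin replicate 3, while the other virgin libraries were at or above 27.3 CPM, and the fold change for pregnant over virgin was -0.25 (SE 0.14). Tsr1 gave -0.38 (SE 0.20) and Rrp12 -0.32 (SE 0.23) for pregnant over pseudopregnant libraries.

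The large-subunit genes include the complex of Pes1, Bop1 and Wdr12, which cells need to process the precursor of large-subunit RNA. Bop1 stood at 30.5, 36.1 and 39.7 CPM in the lowest, median and highest pregnant libraries, 27.6, 40.3 and 44.7 CPM in pseudopregnant and 31.0, 38.4 and 48.0 CPM in virgin libraries. It was among the steadier genes, with -0.14 (SE 0.12) for pregnant and 0.0051 (SE 0.12) for pseudopregnant over virgin. Ppan had 6.20, 10.8 and 15.5 CPM in pregnant, 8.53, 11.9 and 14.6 CPM in pseudopregnant and 6.72, 15.6 and 22.1 CPM in virgin libraries. All 6 pregnant and all 6 pseudopregnant libraries of Ppan lay below the virgin median, a pattern it shared with Myc and with no other of the 39 genes. Its fold changes over virgin were -0.47 (SE 0.24) for pregnant and -0.40 (SE 0.24) for pseudopregnant. Rrs1, a factor that helps to load ribosomal RNA and proteins onto the large subunit, had 7.91, 11.5 and 16.4 CPM in pregnant, 9.48, 13.7 and 17.4 CPM in pseudopregnant and 8.42, 16.5 and 18.2 CPM in virgin libraries. All 6 pregnant libraries of Rrs1 lay below the virgin median, at -0.39 (SE 0.20). Rrp1b had 2.10, 3.36 and 6.61 CPM in pregnant, 1.82, 5.84 and 10.2 CPM in pseudopregnant and 2.63, 4.80 and 6.02 CPM in virgin libraries. As for Polr1a, Rrp1b was widest among pseudopregnant libraries, and pregnant over pseudopregnant gave -0.54 (SE 0.36). Pes1, Wdr12, Nop2, Nop16, Noc2l and Nle1 lay between -0.39 (Nop16) and -0.061 (Nop2) for pregnant over virgin and between -0.37 (Nop16) and 0.013 (Nop2) for pseudopregnant over virgin.

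Across libraries the 39 genes varied largely together. When each gene was expressed as log2 CPM minus its own mean over the 18 libraries, the median of the 39 deviations was lowest in 5 libraries, at -0.75 and -0.44 in pregnant replicates 3 and 4, -0.53 and -0.32 in pseudopregnant replicates 3 and 1, and -0.57 in virgin replicate 3. All 39 genes lay below their own mean in pregnant replicate 3 and in pseudopregnant replicate 3, and 38 of 39 in pregnant replicate 4 and in virgin replicate 3. All 39 lay above it in pregnant replicate 5 and in virgin replicate 5. Replicate 3 was the lowest library for 35 genes among pregnant, 28 among pseudopregnant and 37 among virgin libraries. Group medians of this summary were -0.057 for pregnant, 0.19 for pseudopregnant and 0.22 for virgin libraries, so the spread within each group exceeded the distance between groups.

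**Figure D3:**
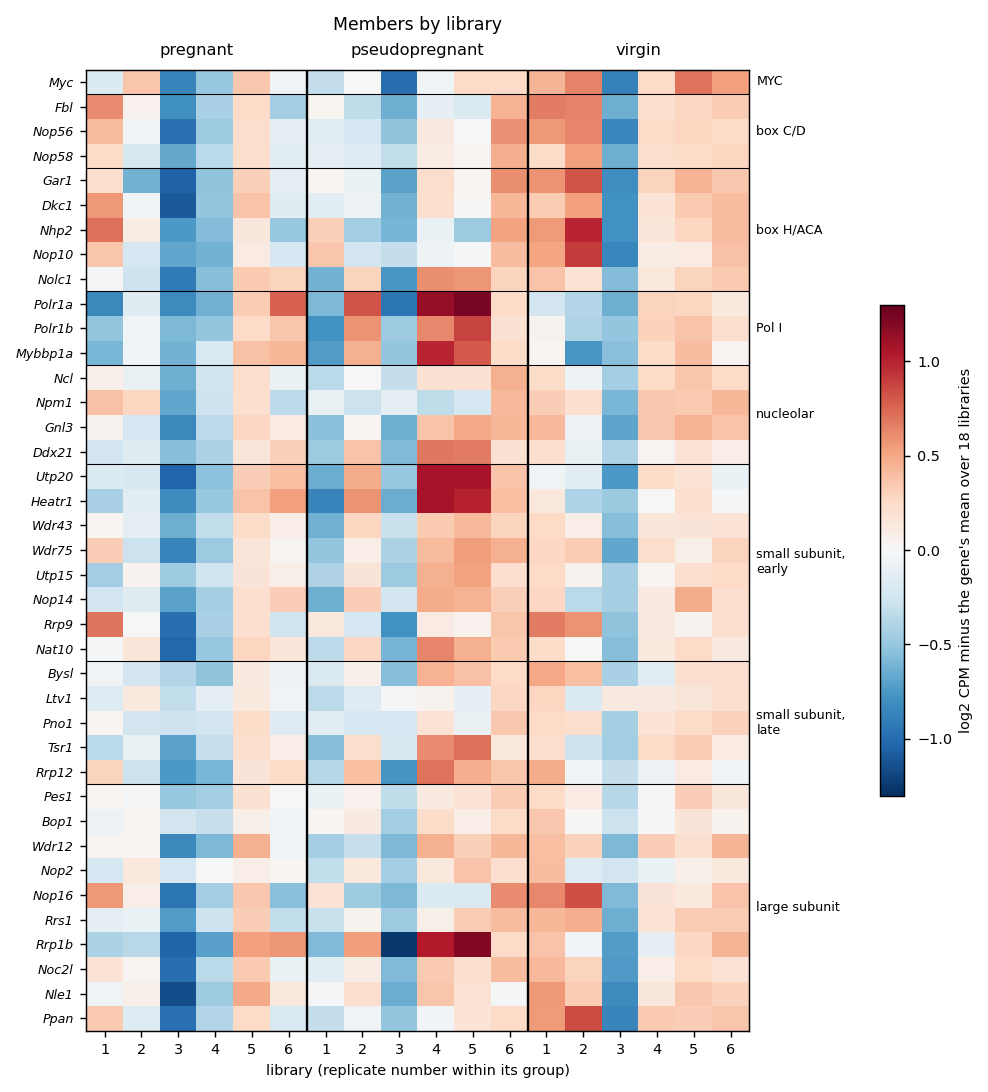
Each cell is the log2 CPM of a gene in a library minus that gene's mean over the 18 libraries (blue below, red above), with pregnant, pseudopregnant and virgin libraries from left to right and genes grouped by role. Replicate 3 forms a blue column in every group, and pseudopregnant replicates 4 and 5 are darkest red for Polr1a, Utp20, Heatr1 and Rrp1b.

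Not all roles peaked in the same library. The box C/D and box H/ACA genes were highest in virgin replicate 2 (medians 0.64 and 0.81), a library in which Mybbp1a was at -0.76. The polymerase I genes were highest in pseudopregnant replicate 4 (0.99) and lowest in pseudopregnant replicate 1 (-0.73), and the early small-subunit genes were highest in pseudopregnant replicate 5 (0.49). In pseudopregnant replicate 5 Polr1a was at 1.23 and Nhp2 at -0.47. Polr1a has 11871 exon bases, Mybbp1a 5803 and Nhp2 1146. Each library also had its own slope of level on exon length, described below. It was -0.25 in virgin replicate 2 and -0.16 in pseudopregnant replicate 1, but 0.19 and 0.24 in pseudopregnant replicates 4 and 5. The part of that slope in these peaks was not tested.

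The low libraries were also low in transcripts of dividing cells. A proliferation score, the mean deviation of 24 cell-cycle genes that include none of the 39, was lowest in the same libraries, pregnant replicates 3 (-0.76) and 4 (-0.33), pseudopregnant replicates 3 (-0.58) and 1 (-0.37) and virgin replicate 3 (-0.67). Its 24 genes summed to 497 to 944 CPM in pregnant, 569.7 to 1115 CPM in pseudopregnant and 533 to 1048 CPM in virgin libraries, and 20 absorptive enterocyte genes to 35405 to 71001 CPM in pregnant, 32817 to 58038 CPM in pseudopregnant and 29333 to 70549.7 CPM in virgin libraries. No marker of either list was at 0 in all libraries. For pregnant over virgin the 24 proliferation genes were all below 0 (median -0.21) and 18 of the 20 enterocyte genes above 0 (median 0.44). Of all tested genes, 51.5% were below 0 and 48.5% above. For pseudopregnant over virgin 13 of the 24 proliferation genes were above 0 (median 0.016), or 10 with upper-quartile scaling (median -0.021). The villus-minus-crypt score is the difference of the enterocyte and proliferation scores. With it as a covariate, 23 of the 39 genes were below 0 for pregnant over virgin (median -0.0077), 16 for pseudopregnant over virgin (median 0.039) and 26 for pregnant over pseudopregnant (median -0.07). In that fit Gar1 stood at -0.22 (SE 0.16) and Myc at -0.046 (SE 0.12) for pregnant over virgin, and Utp20 at 0.62 (SE 0.21), Polr1a at 0.65 (SE 0.31) and Myc at -0.24 (SE 0.11) for pseudopregnant over virgin, with 0 of 39 past an adjusted p of 0.05 in edgeR. There Utp20, Heatr1, Myc and Polr1a had an unadjusted p under 0.05 for pseudopregnant over virgin, 4 of 39 against 11.2% of all genes. The 4 libraries of highest villus-minus-crypt score were the replicates 3 and pregnant replicate 4, and without them the medians were -0.17 for pregnant over virgin (33 below 0), -0.069 for pseudopregnant over virgin (23 below 0) and -0.12 for pregnant over pseudopregnant (28 below 0).

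The 1 relation tested across libraries was that of Myc with the proliferation score. Over 18 libraries Pearson's r was 0.88 (permutation p = 3e-05) and Spearman's rho 0.69 (permutation p = 0.00168). Without pregnant replicate 3 and virgin replicate 3, the libraries farthest from the median score, r was 0.81 (permutation p = 0.00021) and rho 0.58 (permutation p = 0.022). Within groups of 6, r was 0.97 in pregnant (exact permutation p = 0.00556), 0.90 in pseudopregnant (exact permutation p = 0.0111) and 0.91 in virgin libraries (exact permutation p = 0.0889). Spearman's coefficient was 0.89 in pregnant (exact permutation p = 0.0333), 0.71 in pseudopregnant (exact permutation p = 0.136) and 0.49 in virgin libraries (exact permutation p = 0.356). By either measure the relation did not pass 0.05 among virgin libraries alone, nor by rho among pseudopregnant ones. In each group replicate 3 was lowest in both Myc and the score. Within-group values without replicate 3 were not computed. Virgin replicate 3 had a score of -0.67 and a Myc deviation of -0.88. The other virgin libraries had scores of 0.053 to 0.40 and Myc deviations of 0.25 to 0.71, so the virgin r rests largely on replicate 3. Mki67 alone in place of the 24 genes gave an r of 0.48 (permutation p = 0.0453) and a rho of 0.44 (permutation p = 0.0682).

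**Figure D4:**
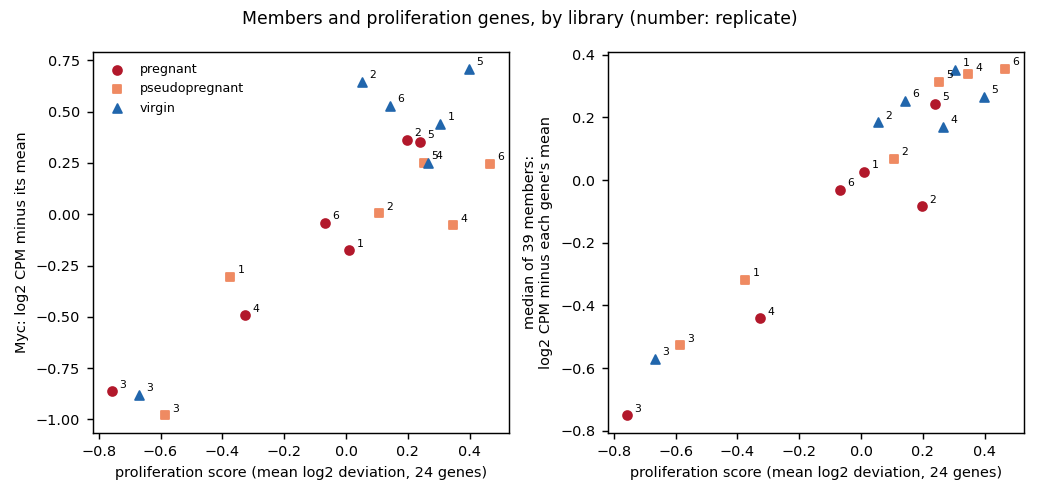
Deviation of Myc (left) and the median deviation of the 39 genes (right), both on the log2 scale, against the proliferation score of each library, with the replicate number beside each point. The 3 libraries labelled replicate 3 sit at the low end of both axes, and in the left panel virgin replicates 2 and 5 lie highest.

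The genes whose log2 CPM followed Myc most closely over the 18 libraries were Hmga1 (r = 0.95), Arhgef39 (0.95), Plp2 (0.94), N4bp3 (0.94) and Fbxo5 (0.94). Among the ribosome biogenesis genes Rrs1 came nearest (r = 0.91, the 21st of all tested genes), then Nle1 (0.88), Ppan (0.88) and Pes1 (0.88). The 38 genes had a median r with Myc of 0.76 and a lowest of 0.44 (Mybbp1a), where the median over all tested genes was 0.005. Libraries share their cell content in all of these values, so r is given as a description.

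Fold changes also went with the length of a gene's exons, counted over all its annotated transcripts. For pseudopregnant over virgin, the 14 genes with under 3000 exon bases had a median of -0.21 with 11 below 0, the 12 with at least 3000 and under 5000 bases one of -0.04, and the 13 with at least 5000 bases one of 0.21 with 9 above 0. Polr1a, Utp20 and Heatr1, with 11871, 10199 and 7828 exon bases, led the long genes, while Nop58 (10758 bases) and Wdr12 (11955 bases) lay at -0.17. Spearman's rho across the 39 genes, which are not independent replicates, was 0.46 for pregnant over virgin, 0.57 for pseudopregnant over virgin and -0.51 for pregnant over pseudopregnant. Across 3378 other genes with a mean of at least 50 CPM it was 0.43, 0.62 and -0.47. With each library's own slope of level on exon length as a covariate, the pseudopregnant over virgin median was -0.042 for the short and -0.031 for the long genes, Polr1a stood at 0.035 (SE 0.33) and Utp20 at 0.24 (SE 0.31), and Myc at -0.36 (SE 0.29). All 39 genes were below 0 for pregnant over virgin in that fit (median -0.21) and for pregnant over pseudopregnant (median -0.22), with 0 past an adjusted p of 0.05 in edgeR. The slope had a median of 0.024 in pregnant, 0.096 in pseudopregnant and -0.054 in virgin libraries, and its part in the fold changes of these genes was not otherwise tested.

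**Figure D5:**
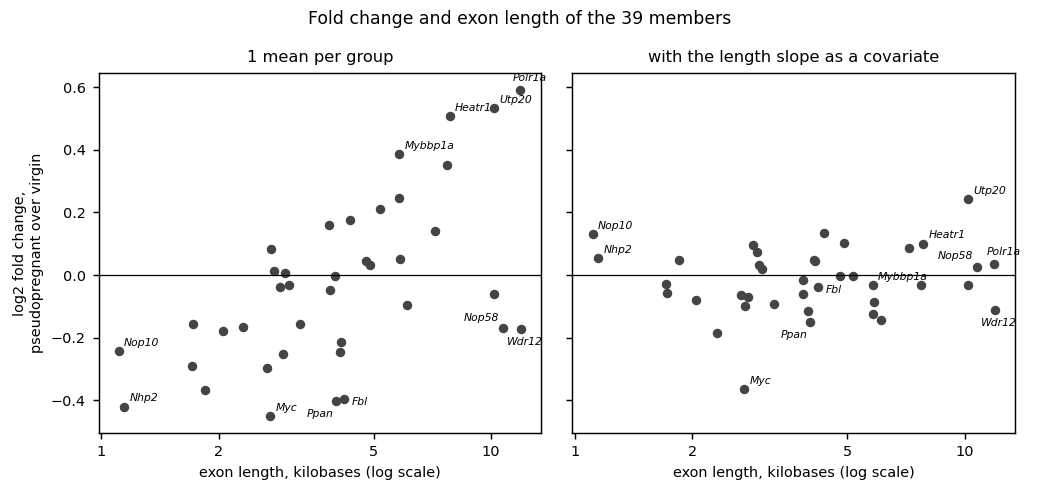
Log2 fold change, pseudopregnant over virgin, of the 39 genes against the exon length of each gene in kilobases on a log axis, fitted with 1 mean per group (left) and with the length slope of each library as a covariate (right). On the left Polr1a, Utp20 and Heatr1 stand at 0.51 to 0.59 among the long genes, and on the right their values are between 0.035 and 0.24.

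Other factors of the pathway were compared from companion lists of polymerase I, small-subunit and large-subunit genes, of which 79 of 80 were tested. For pregnant over virgin 75 of the 79 were below 0 (median -0.19) and 0 passed an adjusted p of 0.05 in edgeR. Brix1 (-0.37, SE 0.17) and Rrp1 (-0.21, SE 0.10), both of the large subunit, were the 2 of 79 with an unadjusted p under 0.05, where 3.68% of all tested genes were. Brix1 stood at 14.7, 21.2 and 27.6 CPM in the lowest, median and highest pregnant and 16.5, 30.1 and 31.2 CPM in virgin libraries. For pseudopregnant over virgin 55 of the 79 were below 0 (median -0.14), and 4 of the 79 had an unadjusted p under 0.05, of which 2 were higher and 2 lower, where 9.37% of all tested genes did. Of these, Mdn1 and Nvl, both higher, had the smallest p, and the 2 lower ones are not named here. Mdn1, a very large ATPase that remodels the pre-large subunit, was at 2.61, 7.54 and 19.3 CPM in pseudopregnant and 2.91, 4.18 and 4.64 CPM in virgin libraries (1.20, SE 0.46, adjusted p = 0.515 in edgeR). Nvl, another ATPase of that pathway, gave 0.44 (SE 0.18). The part of exon length in the values of Mdn1 and Nvl was not tested. In the polymerase I list the genes of smallest p were Polr1c (-0.28, SE 0.15) and Polr1d (-0.47, SE 0.25). In the small-subunit list they were Rrp7a (-0.20, SE 0.10) and Utp23 (-0.27, SE 0.14). Pregnant over pseudopregnant libraries had 54 of the 79 below 0 (51.6% of all tested genes), with a median of -0.08 and Mdn1 at -0.94 (SE 0.45).

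The 73 genes of ribosomal proteins were all below 0 for pregnant (median -0.27) and for pseudopregnant over virgin (median -0.44). Of all tested genes, 51.5% and 49.4% were. For pregnant over pseudopregnant 68 of the 73 were above 0 (median 0.16), as were 48.4% of all tested genes. In edgeR 0 of the 73 passed an adjusted p of 0.05. Their mean deviation was 0.93 in virgin replicate 2 and 0.78 in pregnant replicate 1, where the length slope was -0.25 and -0.24. It was -0.58 in pseudopregnant replicates 4 and 5 (slopes 0.19 and 0.24) and in pregnant replicate 3 (slope 0.086). The part of that slope in these values was not tested. Among 21 other textbook targets of MYC, 20 were below 0 for pregnant over virgin (median -0.17; 21 with upper-quartile scaling), as were 51.5% of all tested genes. Ccnd2, a D-type cyclin, had the smallest unadjusted p of these (-0.42, SE 0.20), with 104, 158 and 192 CPM in the lowest, median and highest pregnant and 122, 195 and 258 CPM in virgin libraries. Of 12 genes of the MYC and MAX network, 6 were above and 6 below 0 for pregnant over virgin. The MYC antagonist Mnt was at 0.36 (SE 0.17) and Mxi1 at 0.34 (SE 0.20), and Max at 0.17. Mxd1 was also above 0 (0.33), while Mxd3 (-0.30) and Mxd4 (-0.044) were below 0. For pseudopregnant over virgin Mga, which encodes a MAX partner with a long transcript, gave 0.68 (SE 0.25) and Mxd3 -0.44 (SE 0.21), and no gene of the network passed an adjusted p of 0.05.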

How the data were processed

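The authors deposited untransformed read counts for Ensembl genes in a separate table for every library. Tools credited to the submitters' processing notes are HISAT2 2.0.4 for the build GRCm38, FastQC 0.11.5, featureCounts with Subread 2.0.0, and DESeq2 1.24.0. Per the labels, total RNA came from an RNeasy Plus Micro kit, poly(A) RNA was selected, and NEBNext Ultra II Directional reagents gave the libraries. No source used here gives the strand setting or the annotation release of the counting. GENCODE M21 gave symbols for 47310 of 47729 genes, and the remaining 419 took up to 0.029% of counts. No library was a duplicate of another in its group: chi-square per degree of freedom between libraries of a group was at least 32.5. Libraries of different groups were not compared in this way.

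Counts were filtered by filterByExpr, scaled by TMM and fitted in edgeR 4.0.16 (R 4.3.3) with 1 mean per group over 18 libraries. Each contrast was tested two-sided by the quasi-likelihood test with Benjamini-Hochberg adjustment over 14675 genes at 0.05. The fit was tested on simulated data with 200 changed genes. Log2 CPM used a prior count of 2. Correlations used 1e+05 permutations, or exact permutation within groups. Alternatives were DESeq2 1.42.0 as test or scaling, upper-quartile scaling, other count filters, limma-voom (limma 3.58.1), only the 12 libraries compared, the replicate number as a block, 2 covariates and each library left out in turn. Added after seeing the data were the count of genes below 0 and the fit without the 4 libraries of highest villus-minus-crypt score.

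The genes, lists, tests and the naming rule were chosen with earlier results of these data known. Given in full are Myc, the gene of smallest p per role in each of the 2 contrasts with virgin, the 3 highest and 3 lowest fold changes per contrast, and the highest level per kilobase per role. Of each companion list, the 2 genes of smallest p per contrast could be named, and of the genes like Myc the 5 of highest r. Max, Mxd1, Mxd4, the pregnant over virgin value of Mxd3 and genes called only by other settings were named after their values were seen.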

Additional observations from a re-analysis of the deposited data

Results flagged for a closer look

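Among 117 groups of 6 values (39 genes in 3 groups), 14 held a library far from the other 5 by Dixon's gap criterion. Chance alone gives about 1 in 20 when such groups are independent. These are not, since the 39 genes varied largely together across the same libraries, so the 14 cannot be weighed against that rate. Virgin replicate 3 was the library set apart in 12 of the 14, which is largely 1 library counted again for each gene. It stood at 22.7 CPM for Nop56 (others 48.4 to 63.7), 33.8 CPM for Nop58 (61.9 to 76.3), 14.1 CPM for Dkc1 (27.6 to 35.3) and 17.99 CPM for Nolc1 (29.2 to 34.4). It had 189 CPM for Npm1 (333 to 385), 15.9 CPM for Wdr43 (24.8 to 27.9), 7.002 CPM for Wdr75 (11.9 to 14.1) and 8.08 CPM for Utp15 (11.2 to 13.1). It had 17.9 CPM for Pno1 (27.3 to 29.6), 4.85 CPM for Wdr12 (8.46 to 9.96), 8.42 CPM for Rrs1 (14.9 to 18.2) and 21.3 CPM for Noc2l (37.8 to 47.6). In the same library the proliferation score was -0.67 and the villus-minus-crypt score 1.27, and their part in these values was not tested. Pregnant replicate 3 was lower still in the median of the 39 genes, but pregnant replicate 4 was low too, so the gap to the next library was smaller. Pseudopregnant replicate 6 stood at 385 CPM for Npm1 (others 227 to 268), and pseudopregnant replicate 3 at 27.6 CPM for Bop1 (38.3 to 44.7).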

How the results depend on the processing

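None of the 39 genes passed an adjusted p of 0.05 under any alternative. Their lowest adjusted p over the alternatives was 0.321 for pregnant against virgin, 0.188 for pseudopregnant against virgin and 0.448 for pregnant against pseudopregnant, and the highest 1. Over all genes, pregnant against virgin gave 5 past the threshold with DESeq2 (Slc31a1, Gm42427, Cyp3a44, Bco1 and Mbl2) and 0 to 1 with a library left out, none of them among the 39. The replicate block gave 1 gene (Gm42427), and 6, 3 and 3 of the 39 then had an unadjusted p under 0.05 in the 3 comparisons (6.67%, 13.5% and 4.21% of all genes), against 1, 0 and 0 without it. The numbers were not treated as pairs, since the labels do not say what they mark and correlations of same-numbered libraries ran from -0.48 to 0.66. In the 3 comparisons 1, 2 and 3 of 6 correlated best with their own number, replicate 3 each time (0.66, 0.38 and 0.41). With the villus-minus-crypt covariate, 23 genes were below 0 for pregnant over virgin and the pseudopregnant over virgin median was 0.039, and the cause was not tested. Leaving out libraries gave medians of -0.34 to -0.14, -0.15 to 0.034 and -0.29 to -0.12 in the 3 comparisons, and 35 to 39, 17 to 29 and 28 to 38 genes below 0. For the 22 genes given in full, the sign differed in 39, 29 and 36 of 638 values per comparison. Scaling by size factors or upper quartile moved the median of all genes by at most 0.033.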
